A study of Mus musculus with 39 samples.

Results

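Immune checkpoint and exhaustion genes were examined across 39 mouse mammary tumours as a set of 10 genes chosen by symbol from the 53715 genes of the count table: Pdcd1, Ctla4, Lag3, Havcr2, Tigit, Cd274, Pdcd1lg2, Icos, Tox and Foxp3. The tumours were mammary adenocarcinomas of no special type from BlgCre Brca1fl/fl p53+/- mice, in which Cre is driven by the promoter of a milk protein gene (Blg), so that floxed alleles can be recombined in mammary epithelium, while the p53+/- state is carried in the germline. All tumours shared that background and differed in the floxed Lyn allele: 13 came from Lynfl/fl mice, 14 from Lynfl/wt mice and 12 from Lynwt/wt mice. By the study's account cells cultured from such tumours had lost the floxed part of Lyn in some cases and kept it in others, so that Lynfl/fl names the genotype of the mouse and not always a tumour without Lyn. Lyn codes for a Src family kinase that leukocytes are known to express too. All mice were adult females. The study further split the same tumours by their own RNA, into 13 Lyn-high and 13 Lyn-low tumours by Lyn level (13 lay between and are called Lyn-middle here), and into 10 PCA group 3/4 and 29 PCA group 1/2 tumours by principal component analysis of all genes. Because both splits were made from these expression values, their p-values describe how far the groups lie apart and are not an independent test.

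T cells that meet antigen carry inhibitory receptors that dampen their activity, and a T cell under lasting stimulation expresses several of them together in a state called exhaustion. The receptors are engaged by ligands on macrophages, dendritic cells and tumour cells, the best known pair being PD-1 on T cells and PD-L1 on the cells around them. Several of these genes are also transcribed outside T cells, Havcr2 in macrophages and dendritic cells among them, and in a whole tumour piece a lower level from fewer cells of a type cannot be told apart from less RNA per cell.

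The 10 genes fall into 4 roles. Pdcd1 (PD-1), Ctla4, Lag3, Havcr2 (TIM-3) and Tigit are the inhibitory receptors. Cd274 (PD-L1) and Pdcd1lg2 (PD-L2) are the ligands of PD-1. Icos is a co-stimulatory receptor of activated T cells. Tox and Foxp3 are transcription factors, Tox being known for the exhausted state and for T cell development, and Foxp3 for regulatory T cells. Among their positions in GRCm38, 2 pairs are neighbours. Cd274 (chr19:29367455-29388095) and Pdcd1lg2 (chr19:29410919-29471161) lie on the plus strand with 22823 bases between them, and Ctla4 (chr1:60887000-60915832) and Icos (chr1:60977927-61000320) also lie on the plus strand, 62094 bases apart. Tox spans chr4:6686353-6991557 on the minus strand. Exons of Foxp3 (chrX:7573644-7595245) overlap those of Ccdc22 and Ppp1r3f on the opposite strand and of the non-coding Flicr on the same strand over 590, 266 and 853 bases, and exons of Cd274 and Tox overlap antisense genes over 511 and 260 bases. Without a stated strand setting, reads on these shared bases cannot be told apart from those of the overlapping genes. The shared bases are a part of exonic lengths of 4577 (Foxp3), 3622 (Cd274) and 7609 bases (Tox).

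For 7 of the 10 genes RefSeq gave a promoter window, here 250 bases before to 50 bases after the start site on GRCm38.p6. The 4 windows of receptors and ligands that were higher in PCA group 3/4 tumours are shown because these genes moved together. Capitals mark GGAAA or its reverse complement TTTCC, the core bound by NFAT, a factor of T cell activation. TTCNNNGAA, the core bound by STAT factors, was searched as well and was absent from these 4 windows. A match is a run of letters and not a measured site.
Pdcd1 (chr1:94052504-94052803, minus strand): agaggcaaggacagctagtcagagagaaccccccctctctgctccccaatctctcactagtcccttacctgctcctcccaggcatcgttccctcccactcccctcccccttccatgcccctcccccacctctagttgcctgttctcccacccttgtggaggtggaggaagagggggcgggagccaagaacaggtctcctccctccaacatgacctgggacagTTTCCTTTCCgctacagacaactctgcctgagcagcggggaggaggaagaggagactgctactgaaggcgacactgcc
Havcr2 (chr11:46454681-46454980, plus strand): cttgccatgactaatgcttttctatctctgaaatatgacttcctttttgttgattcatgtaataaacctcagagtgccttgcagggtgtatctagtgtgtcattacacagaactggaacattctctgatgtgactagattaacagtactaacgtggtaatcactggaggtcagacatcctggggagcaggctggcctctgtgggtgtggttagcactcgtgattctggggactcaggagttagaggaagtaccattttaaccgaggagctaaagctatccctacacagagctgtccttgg
Cd274 (chr19:29367188-29367487, plus strand): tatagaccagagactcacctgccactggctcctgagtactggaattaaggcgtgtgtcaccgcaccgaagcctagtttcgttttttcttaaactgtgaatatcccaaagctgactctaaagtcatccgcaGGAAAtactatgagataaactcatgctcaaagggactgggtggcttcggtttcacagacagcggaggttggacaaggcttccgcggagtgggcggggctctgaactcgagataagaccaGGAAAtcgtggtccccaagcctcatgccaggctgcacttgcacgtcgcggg
Pdcd1lg2 (chr19:29410669-29410968, plus strand): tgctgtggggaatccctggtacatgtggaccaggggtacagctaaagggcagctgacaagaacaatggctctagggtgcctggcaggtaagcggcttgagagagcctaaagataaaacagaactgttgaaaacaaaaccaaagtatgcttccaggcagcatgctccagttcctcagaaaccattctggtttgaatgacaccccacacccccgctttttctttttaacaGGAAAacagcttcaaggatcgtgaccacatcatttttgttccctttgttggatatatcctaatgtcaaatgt
The Pdcd1 window held 2 such cores, abutting each other, starting at positions -28 and -23 from the start site. Cd274 held 2, Pdcd1lg2 held 1 and Havcr2 held 0. Of all 32851 promoter windows of that length, 61.3% held the NFAT core and 8.3% the STAT core on either strand (TTCNNNGAA reads the same on both), so that its presence is common. Among the other members, Ctla4 held 1 NFAT core, Tigit 2, and the windows of Foxp3, which has 2 start sites, held 2 and 1, the last overlapping a STAT core.

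All 10 genes were found in the count table, and their levels per exonic length differed widely. In reads scaled to library size and kilobase of exon (RPKM), the median over the 39 tumours was highest for Havcr2 (4.23, range 0.949 to 22.7) and Lag3 (2.82, range 0.829 to 15.1), followed by Cd274 (1.62, range 0.345 to 10.9). Pdcd1 had a median of 0.744, Foxp3 of 0.471 and Tigit of 0.456 RPKM. The lowest medians were those of Tox (0.141), Icos (0.141), Pdcd1lg2 (0.102) and Ctla4 (0.0625). The ranges of neighbours in this order overlap across tumours. Tox ranged from 0 to 9.43 RPKM, and Cd3e, the T cell receptor subunit used here as the measure of T cell content, had a median of 0.221 RPKM and a range of 0.0140 to 4.09.

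Raw counts behind the low genes were small. Ctla4 had a median of 10 reads and fewer than 10 reads in 18 tumours, and Pdcd1lg2 a median of 12 with 16 tumours under 10. Tigit had a median of 26 with 10 such tumours, Icos a median of 28 with 9 and Tox a median of 78 with 8. Lag3, Havcr2, Cd274 and Foxp3 had no tumour under 10 reads. Total counts per tumour were 50490044 to 83122719 (median 62409143). Of counts from 1 to 10 in the member genes, 96.7% were even numbers (79.8% over all genes), so that most fragments were entered as 2 reads and low counts rest on fewer fragments than their value. Levels below are counts scaled with TMM to the mean library and are called normalised counts.

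The tumour tissue was epithelial in all libraries: Epcam ranged from 13573 to 216786, Krt8 from 19842 to 184333 and Krt18 from 12966 to 137225 normalised counts. Leukocyte markers were present in unequal amounts. Cd3e ranged from 3.69 to 1079.4 normalised counts and Csf1r, the macrophage receptor, from 2206 to 63119. Cd3e was near the floor in some tumours, such as 55 and 35 of Lynfl/fl (3.69 and 6.03) and 60 of Lynwt/wt (6.78). It could also depart from Trac, another T cell receptor gene: 10.2 with 81.8 Trac in tumour 13 of Lynfl/fl, and 101.4 with 24.1 in tumour 74 of Lynfl/fl. A fit at a given Cd3e therefore accounts for T cell content only in part. The 6 thymocyte markers summed to 126.8 to 1794 normalised counts over all tumours, while the defining genes were low (Rag2 was 0 in all 39 tumours, Rag1 in 30 and Dntt in 18, with highest values of 27.8 for Rag1 and 57.6 for Dntt). Tumour 25 of Lynfl/wt, a Lyn-high and PCA group 3/4 tumour, stood apart with the highest Cd3e (1079.4, the next being tumour 12 of Lynfl/fl at 368.3). It had the highest value of 6 of the 10 members and was among the top 5 for all 10. No comparison below leaves it out unless stated. The ID of each tumour starts with 20 or 21, read here as a year (year 20 and year 21), and the years were unevenly spread: 9 of 13 Lyn-high against 4 of 13 Lyn-low tumours, and 7 of 10 PCA group 3/4 against 11 of 29 PCA group 1/2 tumours, were from year 20. The 39 tumours came from 28 mice, of which 9 gave more than 1.

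The first comparison asked whether checkpoint genes differed with the floxed Lyn genotype. Lyn itself was 657.5, 1689 and 5874 normalised counts (lowest, median and highest) in Lynfl/fl tumours, 1640.1, 3008 and 5316 in Lynfl/wt tumours and 1774, 3132 and 11722 in Lynwt/wt tumours. The groups overlapped, and the log2 fold change of Lynfl/fl against Lynwt/wt was -0.76 ± 0.29 (edgeR, adjusted p = 0.28). None of the 10 members was called higher or lower, at a Benjamini-Hochberg adjusted p under 0.05 and a fold of at least 2 either way (edgeR quasi-likelihood test), in any pair of genotypes. In the Lynfl/fl against Lynwt/wt comparison 0.00526% of the 18998 genes tested were called higher and 0.0263% lower. In the Lynfl/wt against Lynwt/wt comparison 0% were called higher and 0.0158% lower. In the Lynfl/fl against Lynfl/wt comparison 0% were called in each direction. The same 10 genes had unadjusted p under 0.05 in 1, 3 and 1 cases of these comparisons, in that order, and no alternative fit called a member. The shares over all genes at that unadjusted p were not counted.

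Pdcd1 had a median of 57.9 normalised counts in Lynfl/fl tumours (6.68 to 761.7), 136.6 in Lynfl/wt tumours (36.9 to 1068.5) and 51.8 in Lynwt/wt tumours (6.58 to 582.6). These ranges overlapped almost wholly. The log2 fold change of Lynfl/fl against Lynwt/wt was -0.27 ± 0.67 (standard error, adjusted p = 0.92). Ctla4, which competes with CD28 for CD80 and CD86, had the largest log2 fold changes of the members against Lynwt/wt tumours. Its medians were 8.35 in Lynfl/fl tumours (1.87 to 119.2), 16.5 in Lynfl/wt tumours (0 to 207.5) and 5.14 in Lynwt/wt tumours (0 to 31.3), and 2 of 13 Lynfl/fl tumours exceeded every Lynwt/wt tumour. The log2 fold changes were 1.69 ± 0.81 (adjusted p = 0.42) for Lynfl/fl and 2.66 ± 0.83 (adjusted p = 0.22) for Lynfl/wt, each against Lynwt/wt. Icos in Lynfl/wt tumours was 2.15 ± 0.84 on the log2 scale above Lynwt/wt tumours (adjusted p = 0.33), with medians of 45.4 and 9.89 normalised counts. Tox had medians of 38.5 in Lynfl/fl tumours, 177.7 in Lynfl/wt tumours and 20.8 in Lynwt/wt tumours, and its PCA group 3/4 tumours were spread over the genotypes as 1, 6 and 3.

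T cell transcripts had values on the same side between Lynfl/wt and Lynwt/wt tumours. Cd3e had a log2 fold change of 1.5 ± 0.68 (adjusted p = 0.40), and 14 of 17 T cell markers had an unadjusted p under 0.05 in that direction, with none called. The same held for 5 of 9 B cell, 4 of 7 dendritic and 0 of 8 macrophage markers. Markers of 1 cell type are not independent of each other, and the share over all genes at that p was not counted. The summed level of the 17 T cell markers ranged from 1014 to 24851 (tumour 25) in Lynfl/wt tumours and from 597 to 4079 in Lynwt/wt tumours. Its part in the differences of Ctla4 and Icos was not tested, other than by the fit with Cd3e as a covariate for Lynfl/fl against Lynwt/wt, in which no member was called (0% of 18997 genes in each direction) and Ctla4 stood at 1.22 ± 0.67 (adjusted p = 0.51).

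The second comparison set Lyn-high against Lyn-low tumours. Checkpoint receptors, a PD-1 ligand, Icos and Tox were higher in Lyn-high tumours. Of the 9 members that passed the low-count filter, 6 were called higher and none lower (Pdcd1, Havcr2, Tigit, Pdcd1lg2, Icos and Tox), where 5.52% of the 17709 genes tested were called higher and 0.508% lower. The median log2 fold change of those 9 genes was 2.62, beside 0.03 over all genes tested. Markers of many leukocytes were called higher in the same comparison: T cells 15 of 17, B cells 6 of 6 tested (of 9), dendritic cells 6 of 7, macrophages 7 of 8, NK and cytotoxic cells 4 of 6 tested (of 8) and lymph node stroma 2 of 2 tested (of 5). The sums of the 9 B cell genes were 352.2 to 20857 normalised counts in Lyn-high tumours, against 90.5 to 349.7 in Lyn-low tumours. These sums did not overlap, but they include Cr2, which was not tested here. Ms4a1 alone overlapped, with 4.57 in Lyn-high tumour 41 of Lynwt/wt and 25.1 in Lyn-low tumour 38 of Lynfl/fl. Of 19453 single genes, 0.0154% lay wholly higher in Lyn-high tumours. The part of the cells named above in the members' differences was not tested, other than through Cd3e. Cd3e was 3.10 ± 0.62 (adjusted p = 0.0014) and Csf1r 1.85 ± 0.29 (adjusted p = 0.00012) on the log2 scale.

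Pdcd1 ranged from 6.58 over a median of 344.0 to 1068.5 normalised counts in Lyn-high tumours, against 6.68, 38.9 and 58.4 in Lyn-low tumours. All but 2 of the 13 Lyn-high tumours lay above every Lyn-low tumour, and the remaining Lyn-high tumours lay within the Lyn-low range or below it. The fold change was 9.03 (log2 3.17 ± 0.52, adjusted p = 0.00022). Havcr2, a receptor found on T cells and myeloid cells, was 339.6, 1434 and 3988 (lowest, median and highest) in Lyn-high tumours, against 167.1, 334.5 and 817.5 in Lyn-low tumours, a fold of 3.43 (log2 1.78 ± 0.32, adjusted p = 0.00057). Every Lyn-high tumour was above the Lyn-low median and 9 of 13 were above every Lyn-low tumour. Tigit, which competes with CD226 for CD155, was 10.8, 72.04 and 358.5 in Lyn-high tumours, against 3.34, 7.38 and 121.1 in Lyn-low tumours, a fold of 6.13 (adjusted p = 0.0064).

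Lag3, which binds MHC class II, was not called. Its values were 142.9, 479.4 and 2063 in Lyn-high tumours, against 120.9, 384.0 and 1004 in Lyn-low tumours, and 3 Lyn-high tumours exceeded all Lyn-low tumours (log2 0.78 ± 0.38, adjusted p = 0.25). Ctla4 failed the low-count filter of this comparison and has no value in it. It ranged from 0 over 15.4 to 207.5 in Lyn-high tumours and from 0 over 5.70 to 28.7 in Lyn-low tumours. The fit over all 39 tumours kept it and gave a log2 fold change of 2.92 ± 0.79 (edgeR, adjusted p = 0.015).

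Among the ligands, Pdcd1lg2 was called and Cd274 was not. Pdcd1lg2 was 2.29, 37.9 and 769.6 (lowest, median and highest) in Lyn-high tumours, against 0, 5.01 and 15.0 in Lyn-low tumours, and 9 of 13 Lyn-high tumours exceeded all Lyn-low tumours (fold 17.4, log2 4.12 ± 0.79, adjusted p = 0.00091). Tumour 8 of Lynfl/wt held the top value. Without the 4 tumours with lymphoid tissue noted in their sections, of which it is 1, the log2 fold change of Pdcd1lg2 was 2.67. Cd274 was 142.2, 572.3 and 2559 in Lyn-high tumours, against 104.6, 231.2 and 1216 in Lyn-low tumours (log2 1.41 ± 0.46, adjusted p = 0.059). Over 12 alternatives its log2 fold change ran from 0.22 to 2.14 (edgeR or DESeq2, with adjusted p between 0.0036 and 0.97).

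Icos was 0, 58.4 and 846.1 in Lyn-high tumours, against 0, 10.2 and 48.6 in Lyn-low tumours, and 8 of 13 Lyn-high tumours exceeded every Lyn-low tumour (fold 9.01, adjusted p = 0.0096). Tox differed most. It was 10.2, 132.8 and 4639 in Lyn-high tumours, against 2.31, 12.1 and 40.5 in Lyn-low tumours, and 10 of 13 Lyn-high tumours were above every Lyn-low tumour (log2 6.27 ± 0.95, fold 77.2, adjusted p = 0.00011). Its Lyn-high values fell into separate ranges by PCA group: 1036 to 4639 in the 6 that were in PCA group 3/4, against 10.2 to 132.8 in the 7 that were in PCA group 1/2. Foxp3 was 48.3, 185.4 and 872.9 in Lyn-high tumours, against 40.1, 114.8 and 233.5 in Lyn-low tumours (log2 1.04 ± 0.35, adjusted p = 0.069).

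**Figure D1:**
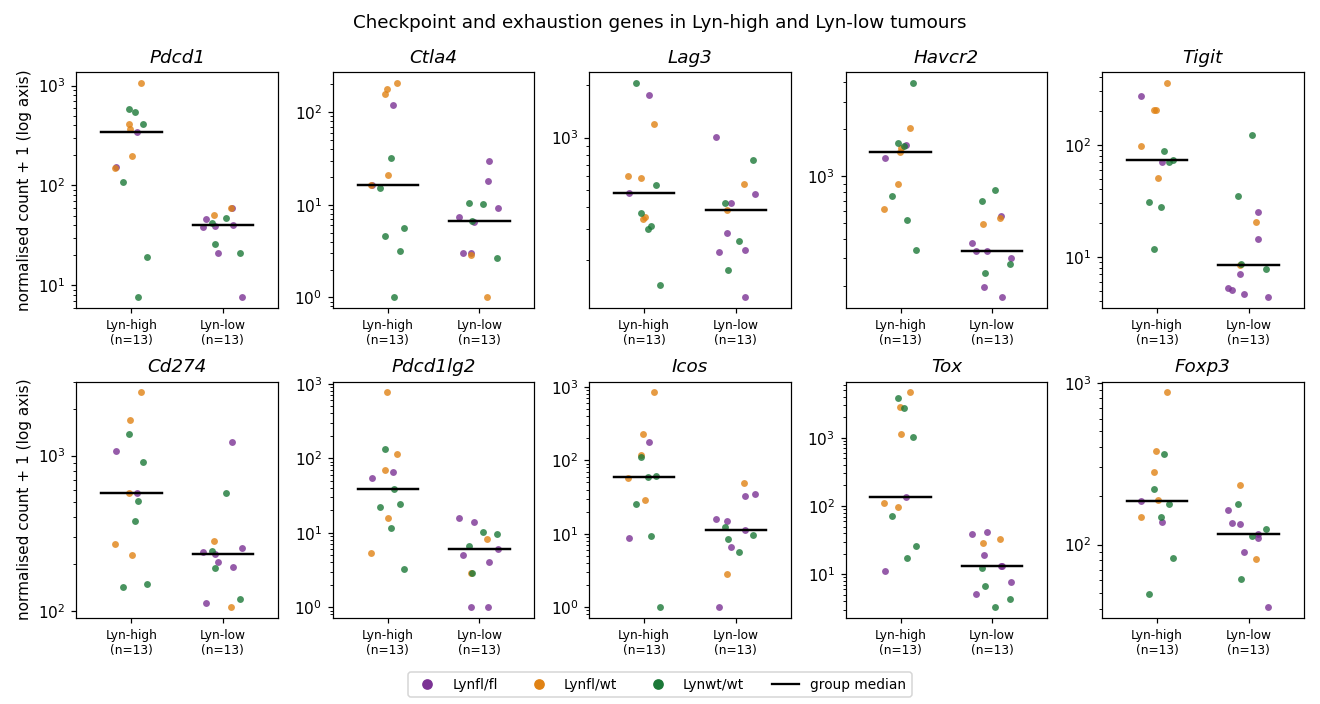
Normalised counts plus 1 (log axis) of the 10 members in each of 13 Lyn-high and 13 Lyn-low tumours, with colour for Lyn genotype and a black bar for the group median. Pdcd1 lies between 6.58 and 1068.5 in Lyn-high tumours and under 58.4 in Lyn-low tumours, and Lag3 overlaps.

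Fewer members were called within a single PCA group or year. Among PCA group 1/2 tumours (7 Lyn-high against 13 Lyn-low), 3 members were called (Pdcd1, Tigit and Pdcd1lg2), and the log2 fold change of Tox was 1.96 (edgeR, adjusted p = 0.088). Among tumours of year 20 (9 against 4), 2 members were called, Pdcd1 and Tox, at log2 fold changes of 3.29 and 6.91. Over all genes, 295 were called in PCA group 1/2 and 303 in year 20, beside 1068 in the full comparison. Among tumours of year 21 (4 against 9), no gene was called, and Pdcd1 and Tox stood at 1.76 and 1.81 (edgeR, adjusted p = 0.59 and 0.55). Tox of Lyn-high tumours was 16.5 to 132.8 in year 21, none of which were in PCA group 3/4. The difference between the years (year 21 minus year 20) in the Lyn effect on Tox was -5.08 ± 1.57 on the log2 scale (edgeR interaction term, adjusted p = 0.53), so that no difference between years passed the test.

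Tumours of the same mouse gave a within-animal comparison. With a term for each animal, no member and no gene was called between Lyn-high and Lyn-low tumours, where 2 animals with 5 tumours held both groups. Tox then stood at 6.4 (edgeR, adjusted p = 0.083) and Pdcd1 at 3.11 (adjusted p = 0.16) on the log2 scale, and both genes were higher in the Lyn-high tumour in 2 of 2 animals. The same held for Lag3, Havcr2, Cd274, Pdcd1lg2, Icos and Foxp3, and for Cd3e and Csf1r. Ctla4 and Tigit were higher in 1 of 2 animals.

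With Cd3e as a covariate no member was called between Lyn-high and Lyn-low tumours (0% of 17708 genes in each direction), and 5 of 9 had an unadjusted p under 0.05. The share over all genes at that unadjusted p was not counted. Icos fell closest to 0, at 0.36 ± 0.86 on the log2 scale (adjusted p = 0.95), beside 3.17 without the covariate. Pdcd1 stood at 2.17 ± 0.61 (adjusted p = 0.13), Tigit at 2.25 ± 0.70 (adjusted p = 0.19), Pdcd1lg2 at 3.76 ± 1.14 (adjusted p = 0.17), Tox at 5.61 ± 1.29 (adjusted p = 0.072) and Havcr2 at 1.33 ± 0.40 (adjusted p = 0.17). DESeq2 called 3 of them in the same design, Pdcd1, Pdcd1lg2 and Tox. The share over all genes was not recorded for the DESeq2 fit, so that its count of members cannot be set against one.

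Other checkpoint genes were called in the same comparison. Of the 28 other checkpoint receptors and ligands, 26 were tested and 13 were called higher and none lower, with a median log2 fold change of 1.19. The 3 with the smallest p were Entpd1 (CD39, an ectoenzyme that hydrolyses extracellular ATP) at 1.12 ± 0.20, Cd244 at 1.43 ± 0.26 and Icosl, the ligand of ICOS, at 2.32 ± 0.44, all with adjusted p under 0.001 (5.9e-04, 6.5e-04 and 9.1e-04). Of the 18 other regulators of exhaustion and regulatory T cells, 3 of 16 tested were called higher: Irf4 (3.24), Eomes (2.58) and Il2ra (2.17).

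The third comparison set PCA group 3/4 against PCA group 1/2 tumours. Tox separated these groups with no overlap. Of the 10 members, 6 were called higher and none lower (Pdcd1, Havcr2, Cd274, Pdcd1lg2, Icos and Tox), where 7.71% of the 19453 genes tested were called higher and 6.45% lower. The median log2 fold change of the members was 1.41, beside -0.05 over all genes tested. T cell markers were called higher for 8 of 17, macrophage markers for 6 of 8, dendritic markers for 4 of 7, B cell markers for 2 of 9, lymph node stroma markers for 2 of 4 tested (of 5) and thymocyte markers for 1 of 2 tested (of 6). Among these were Cr2 (9.84) and Fcer2a (3.86) of the B cell list, Madcam1 (7.75) and Glycam1 (2.12) of the stroma list and Ccr9 (3.32) of the thymocyte list, as log2 fold changes. Ms4a1, a defining B cell gene, was at -0.38 (adjusted p = 0.85) and Ccl21a at -2.82 (adjusted p = 0.16). The part of these cells in the members' differences was not tested, other than through Cd3e. Cd3e was 1.59 ± 0.55 (adjusted p = 0.033) and Csf1r 1.27 ± 0.27 (adjusted p = 4.5e-04) on the log2 scale.

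Tox ranged from 900.5 over a median of 2747 to 4639 normalised counts in PCA group 3/4 tumours, against 0, 25.2 and 358.7 in PCA group 1/2 tumours. The lowest PCA group 3/4 tumour therefore had 900.5 and the highest PCA group 1/2 tumour 358.7. The fold was 37.3 (log2 5.22 ± 0.59, adjusted p = 9.5e-09). Over all genes kept, 13 (0.0668%) lay wholly higher in the 10 tumours and 6 (0.0308%) wholly lower. Over the 39 tumours Tox and Cd3e rose together (Spearman's rho = 0.69), but single tumours departed from this. Tumour 20 of Lynwt/wt had 3815 Tox with 57.7 Cd3e, while tumour 12 of Lynfl/fl, in PCA group 1/2, had 358.7 Tox with 368.3 Cd3e.

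Havcr2 was 743.9, 1548 and 3988 (lowest, median and highest) in PCA group 3/4 tumours, against 167.1, 541.1 and 1585 in PCA group 1/2 tumours. All 10 PCA group 3/4 tumours were above the PCA group 1/2 median and 4 above its highest value (fold 2.74, adjusted p = 5.0e-05). Pdcd1 was 92.9, 283.7 and 1068.5 in PCA group 3/4 tumours, against 6.58, 57.5 and 761.7 in PCA group 1/2 tumours. All 10 were again above the other group's median, with 1 above its highest value (fold 3.08, adjusted p = 0.017). Ctla4 was 2.15, 17.4 and 207.5 against 0, 6.91 and 157.8 in PCA group 3/4 and PCA group 1/2 tumours and was not called (log2 1.16 ± 0.73, adjusted p = 0.27). Neither was Tigit, at 10.8, 29.7 and 358.5 against 3.34, 20.8 and 465.2 (log2 0.41 ± 0.66, adjusted p = 0.71). Lag3 was 113.0, 361.2 and 1189 in PCA group 3/4 tumours, against 120.9, 413.4 and 2063 in PCA group 1/2 tumours (log2 -0.30 ± 0.40, adjusted p = 0.64).

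The ligands of PD-1 were both higher. Cd274 was 227.0, 1109 and 2559 in PCA group 3/4 tumours, against 80.8, 268.6 and 1428 in PCA group 1/2 tumours, with 9 of 10 above the median of PCA group 1/2 (fold 2.56, adjusted p = 0.0070). Pdcd1lg2 was 10.4, 45.4 and 769.6 against 0, 7.30 and 148.3 in PCA group 3/4 and PCA group 1/2 tumours, with 10 of 10 above that median (fold 6.24, adjusted p = 0.0036). Icos was 27.4, 75.4 and 846.1 in PCA group 3/4 tumours, against 0, 14.1 and 224.8 in PCA group 1/2 tumours (fold 4.84, adjusted p = 0.0072). Foxp3 was 79.6, 177.3 and 872.9 in PCA group 3/4 tumours, against 40.1, 132.7 and 362.0 in PCA group 1/2 tumours and passed the adjusted p but not the fold of 2 (fold 1.78, adjusted p = 0.034).

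**Figure D2:**
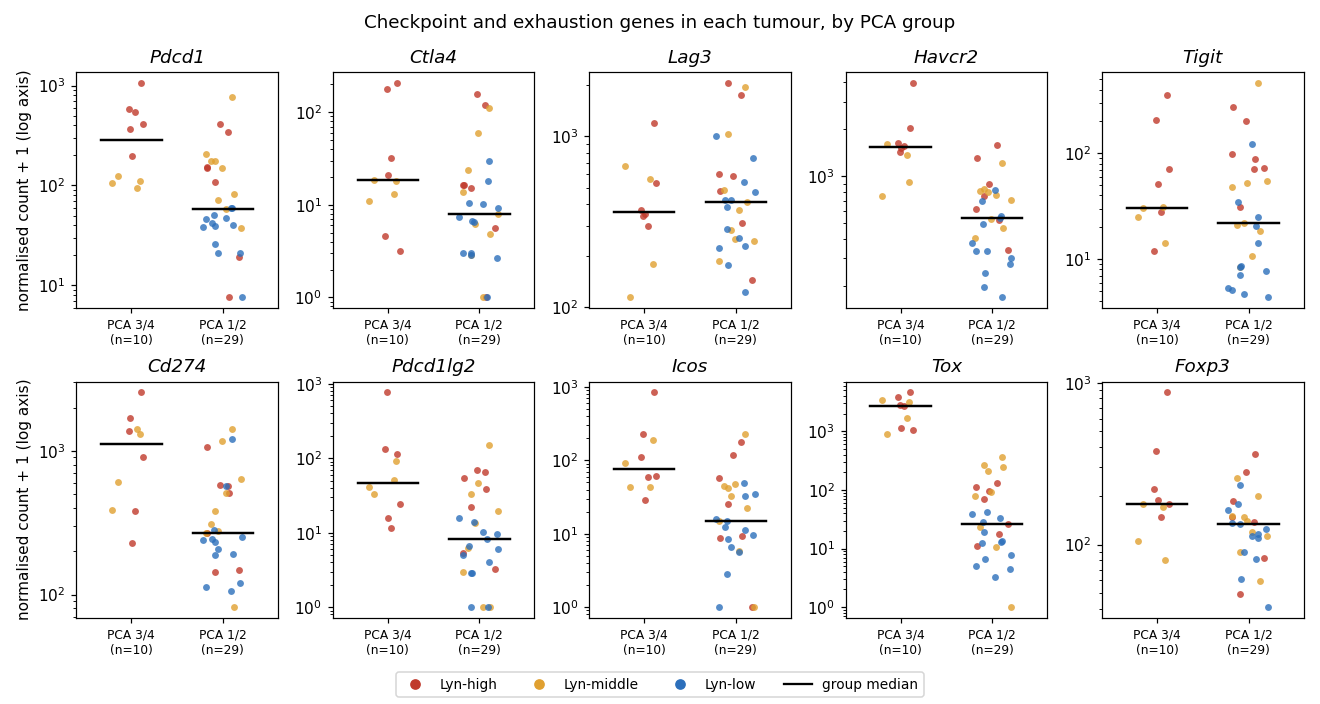
Normalised counts plus 1 (log axis) of the 10 members in each of 10 PCA group 3/4 and 29 PCA group 1/2 tumours, with colour for Lyn group and a black bar for the group median. Tox is 900.5 or higher in every PCA group 3/4 tumour and 358.7 or lower in every PCA group 1/2 tumour, while Lag3 and Tigit overlap throughout.

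In 4 animals, with 9 tumours, both PCA groups were present. Tox was 1036, 1681, 3179 and 3359 normalised counts in their PCA group 3/4 tumours, against 6.80 (the mean of a pair), 31.6, 40.5 and 22.7 in their PCA group 1/2 tumours. It was higher in 4 of 4 animals, as were Cd274 and Pdcd1lg2, while Pdcd1, Havcr2 and Icos were higher in 3 of 4. With a term for each animal, Tox alone was called (log2 6.65, edgeR adjusted p = 0.0084), and the other 5 members called without that term had adjusted p from 0.18 (Havcr2, log2 1.41) to 0.43 (Icos, log2 2.19). Over all genes, 300 were called in the fit with that term.

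Single libraries and years bore on the other calls. Without tumour 25 of Lynfl/wt, 4 members were called, and Pdcd1 and Icos lost the call at log2 fold changes of 1.27 and 1.43 (edgeR, adjusted p = 0.087 and 0.11). Of the 4 tumours with lymphoid tissue in the section, 3 are in PCA group 3/4. Without these 4, 3 members were called (Havcr2, Icos and Tox) and the log2 fold change of Pdcd1lg2 was 1.17 (edgeR, adjusted p = 0.34). Among tumours of year 20 (7 against 11), Havcr2 and Tox were called. Among those of year 21 (3 against 18), Tox alone was, at a log2 fold change of 5.60. Over all genes, 1022 were called in year 20, beside 2753 in the full comparison. Shares over all genes are not given for the other fits of this paragraph. Tox was 900.5 to 4639 in the 7 PCA group 3/4 tumours of year 20, against 0 to 358.7 in PCA group 1/2, and 1681 to 3359 in the 3 of year 21, against 3.39 to 268.5.

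At a given Cd3e, 2 members remained called higher in PCA group 3/4 tumours, Havcr2 (log2 1.10 ± 0.28, adjusted p = 0.0051) and Tox (log2 4.63 ± 0.55, adjusted p = 1.2e-07), where 4.93% of 19452 genes were called higher and 4.9% lower. The median over the members was 0.90, beside -0.04 over all genes. Ctla4 stood at -0.23 ± 0.70, Tigit at -0.78 ± 0.74 and Lag3 at -0.77 ± 0.41 on the log2 scale (adjusted p = 0.87, 0.53 and 0.22). With the ID year as covariate, Havcr2 was at 0.91, under the fold of 2, and Tox was still called. With a term for each animal no member was called at a given Cd3e, and Tox stood at 5.55 (edgeR, adjusted p = 0.26).

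**Figure D3:**
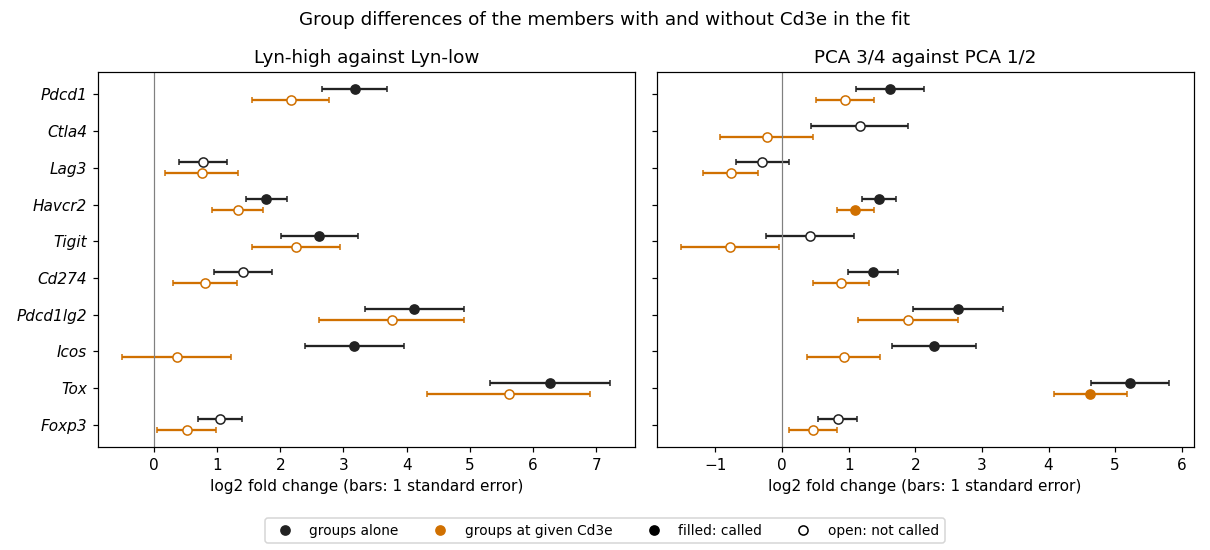
Log2 fold change (x axis, bars of 1 standard error) of each member, on the left for Lyn-high against Lyn-low tumours and on the right for PCA group 3/4 against PCA group 1/2 tumours, black for the groups alone and orange at a given Cd3e, filled where called. Tox stays at 4.63 on the right with Cd3e in the fit, and Icos lies at 0.36 on the left. Ctla4 was not tested on the left.

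Of 28 other receptors and ligands, 7 were called higher, 2 lower and 19 not (median log2 0.82), beside the shares of 7.71% and 6.45% over all genes. Icosl (2.98 ± 0.27, adjusted p = 6.6e-11) and Tnfrsf4 (4.20 ± 0.39, adjusted p = 9.3e-11) had the smallest p, followed by Tnfrsf14 (HVEM, the ligand of BTLA) at 2.02 ± 0.33. Cd200, whose receptor restrains myeloid cells, fell by 1.6, and Fgl1, a LAG-3 ligand, fell by 1.40 on the log2 scale (adjusted p = 0.030 and 0.049). Of 18 other regulators, 1 was called, Ccr8, a chemokine receptor of tumour regulatory T cells, at 2.17 ± 0.76 (adjusted p = 0.034). The median of that list was 0.17. Others passed the adjusted p but not the fold of 2, in both directions. Nr4a1 (-0.96, adjusted p = 0.033) and Nr4a2 (-0.74, adjusted p = 0.038) were lower. Tcf7 (0.96, adjusted p = 0.033) and Nfatc1 (0.71, adjusted p = 0.016) were higher.

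The last comparison asked how closely each member followed Cd3e, the measure of T cell content, over the 39 tumours. The slope on Cd3e (log2 of the member per log2 of Cd3e) passed at an adjusted p under 0.05 for 9 of 10 members, all but Lag3, where 6.78% of 19452 genes had a slope above 0 that passed and 1.02% one below 0. Tox had the steepest slope (1.30 ± 0.29, adjusted p = 0.0022), followed by Icos (0.85 ± 0.11, adjusted p = 1.4e-06), Ctla4 (0.73 ± 0.13, adjusted p = 2.1e-04), Pdcd1lg2 (0.70 ± 0.17) and Pdcd1 (0.65 ± 0.11). Tigit (0.40 ± 0.12), Cd274 (0.35 ± 0.09), Havcr2 (0.35 ± 0.07) and Foxp3 (0.20 ± 0.06, adjusted p = 0.042) were shallower, and Lag3 was at 0.18 ± 0.08 (adjusted p = 0.20). Among marker genes the slope passed above 0 for 15 of 16 T cell, 6 of 7 NK and cytotoxic, 8 of 8 macrophage and 7 of 9 B cell genes. It also passed for 6 of 7 dendritic and 3 of 5 adipocyte genes, and for 0 of 9 epithelial and 0 of 5 blood endothelial genes. A slope on Cd3e was thus not particular to T cell genes. The part of other cells in the members' slopes was not tested, other than through Csf1r. With a term for each animal no slope of a member passed, the lowest adjusted p being 0.098 (edgeR, Icos, slope 1.05).

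**Figure D4:**
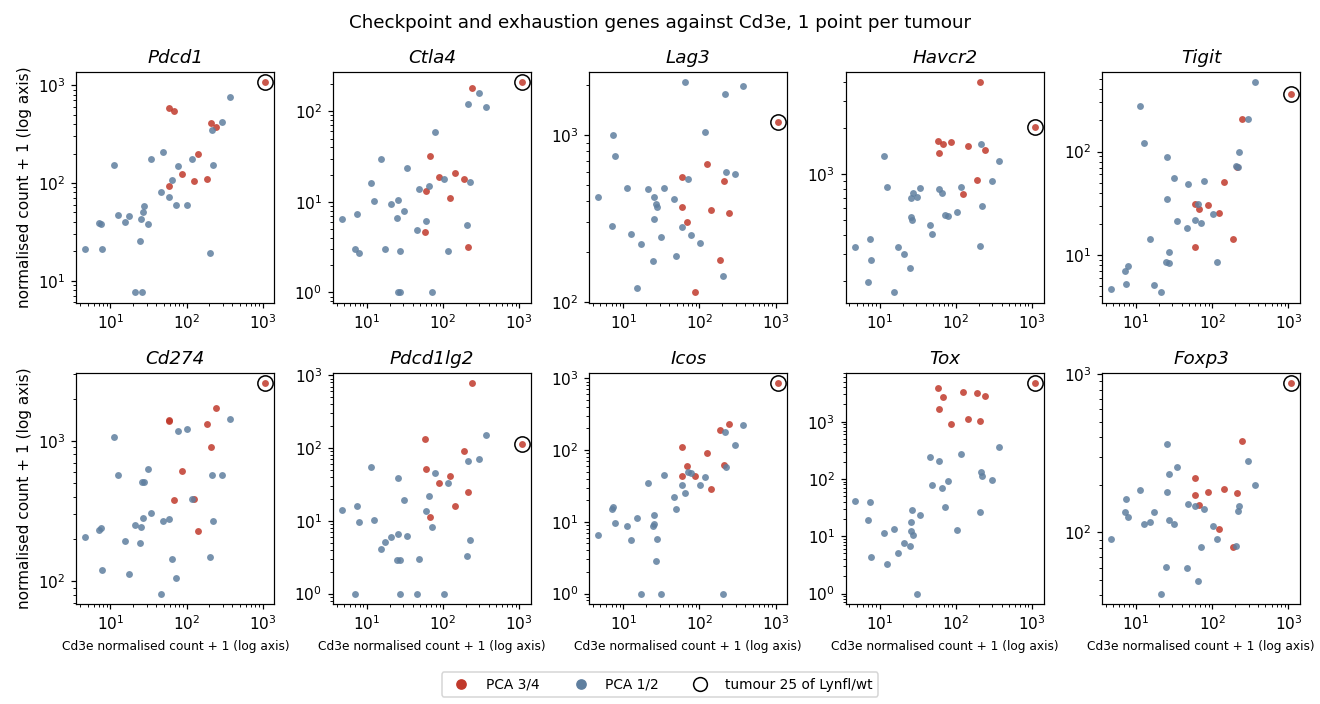
Normalised count plus 1 of each member against that of Cd3e (both log axes), 1 point for each of 39 tumours, coloured by PCA group, with tumour 25 of Lynfl/wt circled. In the Tox panel the PCA group 3/4 points lie between 900.5 and 4639 at any Cd3e, and the Lag3 panel shows no clear slope.

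The rank correlations with Cd3e were highest for Icos, Pdcd1 and Tox. In rank, though not in Pearson's r, Icos had the strongest relation with Cd3e (r = 0.67, Spearman's rho = 0.74). Its permutation p were 3e-05 and 1e-05, the second being the smallest that 100000 permutations can give (adjusted over all genes 0.0020 and 0.0011). Pdcd1 followed (r = 0.69, rho = 0.70, permutation adjusted p = 0.0015 and 0.0017), then Tox (r = 0.66, rho = 0.69, permutation adjusted p = 0.0015 and 0.0011). Leaving out the 2 tumours whose Cd3e lay farthest from its median, r was 0.60 for Icos, 0.62 for Pdcd1 and 0.64 for Tox. Lag3 (r = 0.25, rho = 0.23, permutation adjusted p = 0.40 and 0.47) and Foxp3 (r = 0.33, rho = 0.24, permutation adjusted p = 0.23 and 0.46) did not pass, and r of Foxp3 without those tumours was 0.12. The remaining 5 members had rho between 0.47 and 0.63, of which that of Cd274 missed the threshold (permutation adjusted p = 0.052). Each of the 20 relations (10 members with Cd3e and with Csf1r) was adjusted over all genes kept.

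Within groups of the tumours the relations were uneven. Among the 10 PCA group 3/4 tumours rho with Cd3e was 0.24 for Pdcd1, 0.53 for Icos and 0.13 for Tox, and among PCA group 1/2 tumours it was 0.64 for Pdcd1, 0.60 for Icos and 0.63 for Tox. The slopes on Cd3e did not differ between the PCA groups at an adjusted p under 0.05 for any member (edgeR interaction term). Within year 20 and year 21 it was 0.73 and 0.61 for Pdcd1, 0.85 and 0.59 for Icos, and 0.71 and 0.59 for Tox. Foxp3 had rho of 0.54 in year 20 and -0.14 in year 21. With 1 mean per animal (28), rho was 0.66 for Pdcd1, 0.68 for Icos and 0.67 for Tox. The slopes passed for 4 members in year 20 (Pdcd1, Ctla4, Icos and Foxp3), for 0 in year 21 and for 3 among PCA group 1/2 tumours (Pdcd1, Ctla4 and Icos). Without tumour 25 of Lynfl/wt, 6 of 10 slopes passed, and that of Foxp3 was 0.07 (edgeR, adjusted p = 0.71). The share of all genes that passed was not recorded in these subsets, so that the members' counts cannot be set against it. The slope of Foxp3 was the other way, at -0.10, in year 21 (edgeR, adjusted p = 0.80).

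Csf1r was then added as a measure of macrophage content. With Cd3e and Csf1r together in the fit, Cd3e kept a slope that passed for Pdcd1 (0.43 ± 0.10, adjusted p = 0.017), Ctla4 (0.67 ± 0.18, adjusted p = 0.042) and Icos (0.82 ± 0.15, adjusted p = 0.0012), where 1.34% of 19451 genes passed above 0 and 0.103% below. Csf1r had a slope that passed for Havcr2 (0.86 ± 0.09, adjusted p = 4.5e-09) and Pdcd1 (0.78 ± 0.19, adjusted p = 0.010), where 3.36% passed above 0 and 1.1% below. The joint Cd3e slope of Havcr2 was 0.09 ± 0.05 (adjusted p = 0.51), and Icos and Ctla4 had Csf1r slopes of 0.10 ± 0.30 and 0.20 ± 0.39. Without tumour 25 of Lynfl/wt the joint Cd3e slope passed for Icos alone (0.75, adjusted p = 0.026 by edgeR). With 1 tumour per animal it passed for none. With a term for each animal neither slope passed for any member. For these fits the share over all genes was not recorded. Havcr2 was also the member closest to Csf1r in rank (rho = 0.89, r = 0.90, permutation p = 1e-05, adjusted 3.9e-04 for rho), and its rho stayed between 0.75 and 0.86 within each year and PCA group.

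The genes whose levels ran closest to each member over the 39 tumours are given as a description. For Havcr2 they were Mpeg1 (rho = 0.96), Ctss (0.96) and Cybb (0.96), all genes of phagocytes. For Pdcd1 they were Cd86 (0.85), Ptprc (CD45, 0.85) and Arhgap25 (0.84), for Icos they were Lat (0.84), an adaptor of T cell receptor signalling, Itgb7 (0.83) and Spib (0.79), and for Ctla4 they were Cd2 (0.75), Klre1 (0.73) and Cxcr5 (0.73). For Cd274 they were Acod1 (0.88), Ccl4 (0.86) and Slfn2 (0.85), and for Pdcd1lg2 Scimp (0.84), Tm4sf5 (0.80) and Rin3 (0.79). Tox ran closest to Vcam1 (0.87), Spib (0.85) and Ptpn22 (0.84). Tigit ran closest to Atp8b4 (0.79), and next to Lyn itself (0.73). The most alike genes to Lag3 (Tlr12, 0.59) and Foxp3 (RP23-144O20.5, 0.74, then Gm26541, 0.72) were less closely tied.

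Among the members, all 45 pairs had a positive rho, from 0.06 to 0.80 (median 0.50). The closest pairs were Havcr2 with Pdcd1 (0.80), Tox with Icos (0.79), Icos with Pdcd1 (0.76) and Tox with Pdcd1 (0.73). The neighbouring ligands Cd274 and Pdcd1lg2 had rho of 0.67. Lag3 stood apart, with rho of 0.06 to Ctla4, 0.07 to Cd274, 0.13 to Tigit and 0.15 to Foxp3, and Tox had rho of 0.26 with both Lag3 and Tigit. The points share libraries.

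**Figure D5:**
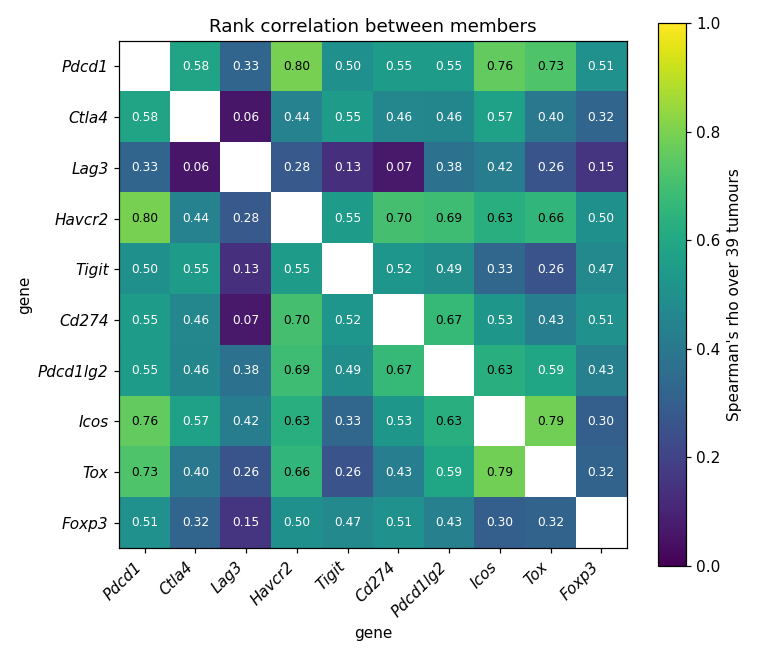
Spearman's rho over 39 tumours between each pair of the 10 members (rows and columns, colour from 0 to 1, values written in the cells). The block of Pdcd1, Havcr2, Icos and Tox reaches 0.80, and the row of Lag3 holds the lowest values, down to 0.06.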

How the data were processed

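RNA of whole tumour pieces was sequenced as paired 100-base poly(A) libraries. After fastp trimming, the authors kept uniquely mapped reads from STAR 2.5.1b (GRCm38) and summed them over Gencode vM17 genes in featureCounts 1.5.1, whose strand setting is not given in the sources used here. The raw counts per gene deposited by the authors were the only values used here. The other deposited tables repeat normalised values or hold the authors' own fold changes and p-values, and were not used.

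Genes were tested with edgeR 4.0.16 in R 4.3.3 (low-count filter, TMM, quasi-likelihood F test, Benjamini-Hochberg adjustment over all genes kept). Calls between groups needed both an adjusted p below 0.05 and a fold above 2 or below 0.5, as in the study, and calls of slopes the adjusted p only. All 3 genotypes shared a fit. The covariates were library-scaled log2 counts of Cd3e or Csf1r after adding 1 read. Alternatives were RLE factors, DESeq2 1.42.0, no filter, ID year as covariate, each year, 1 tumour per animal, tumours without lymphoid tissue in the section, PCA group 1/2 alone, other T cell or macrophage covariates and, chosen after seeing the data, leaving out tumour 25 of Lynfl/wt, a term for each animal (replicate block, from the animal part of the tumour ID) and the interaction tests. Scripts were tested on simulated data. The members and gene lists were chosen with earlier results of these data known. Named beside the members were, by rule, the 3 genes most alike to each member in rank over the 39 tumours, and the listed genes with the smallest p. No pair of libraries was identical, and tumours of 1 mouse are not independent. Gene positions came from Gencode vM21.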

Additional observations from a re-analysis of the deposited data

Results flagged for a closer look

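Among the 10 PCA group 3/4 tumours, 6 of the 10 members had a single tumour far above the rest, by Dixon's criterion for a gap to the nearest tumour over 0.466 of the group's range. The criterion was applied to normalised counts without a log scale. Its rate of about 1 flag in 20 groups holds for normally spread values, which these counts were not shown to be. The number of flags therefore cannot be set against that rate, and the members share tumours. Tumour 25 of Lynfl/wt was the highest for Pdcd1 (1068.5 normalised counts, a gap of 0.498 of the range), Lag3 (1189, 0.479), Icos (846.1, 0.752) and Foxp3 (872.9, 0.626). Its Cd3e was 1079.4, the highest of the series. Tumour 3 of Lynwt/wt was the highest for Havcr2 (3988, 0.602) and also for Csf1r (63119) and Lyn (11722). Tumour 8 of Lynfl/wt, which had lymphoid tissue in its section, was the highest for Pdcd1lg2 (769.6, 0.838). The part of T cell or macrophage content in these values was not tested.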

How the results depend on the processing

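The count of members called held within 1.5 times in every alternative between genotypes (0 of 10 throughout). Between Lyn-high and Lyn-low tumours the 6 calls became 2 among tumours of year 20, 0 among those of year 21 and 3 among PCA group 1/2 tumours. Between PCA groups the 6 calls became 2 in year 20, 1 in year 21 and 3 without the tumours with lymphoid tissue in the section. At a given Cd3e, DESeq2 called 3 members between Lyn groups, and with the ID year as covariate 1 was called between PCA groups. For fits at a given Cd3e and for slopes, the share over all genes was recorded in the main fit only. The 9 members following Cd3e became 4 in year 20, 0 in year 21 and 3 in PCA group 1/2 tumours. The 3 that followed Cd3e at a given Csf1r became 0 with 1 tumour per animal and 1 without tumour 25 of Lynfl/wt. The 2 that followed Csf1r at a given Cd3e became 4 with DESeq2 and 1 with year as covariate, without lymphoid tissue or with Adgre1 in place of Csf1r. The slope of Foxp3 on Cd3e was -0.10 in year 21. Of the members' single values, 20 calls were lost and 4 gained over the alternatives between Lyn groups, and 20 lost between PCA groups. The causes were not tested, fewer tumours in each subset included.

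Counts over all genes moved more. For Lynfl/fl against Lynwt/wt the 6 genes became 88 with DESeq2, 20 without the filter, 10 without lymphoid tissue, 14 in PCA group 1/2, 11 without tumour 25 of Lynfl/wt and 0 with the year, in either year or with 1 tumour per animal. For Lynfl/wt against Lynwt/wt the 3 became 82 with DESeq2, 47 without the filter and 0 in the other alternatives that moved them. For Lynfl/fl against Lynfl/wt DESeq2 called 10. Between Lyn groups the 1068 became 1616 with DESeq2, 1859 without the filter, 547 with year, 303 in year 20, 0 in year 21 and 295 in PCA group 1/2, and between PCA groups the 2753 became 4858 without the filter and 1022 in year 20.

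With the animal as a replicate block, members called became 0 between Lyn groups (0 genes), 1 between PCA groups (300 genes), 0 at a given Cd3e between PCA groups, 0 following Cd3e, and 0 following Cd3e or Csf1r with both in the fit, and the slope of Foxp3 on Cd3e was -0.036. Only 4 animals held both PCA groups and 2 both extreme Lyn groups, so that few tumours carry the values between groups. No paired analysis was possible because no animal gave tumours of more than 1 genotype, in the genotype comparisons. Low counts limit Ctla4, Pdcd1lg2, Icos, Tigit and Tox in tumours with few T cells, and they limit Cd3e as a covariate there too.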
